A study of Homo sapiens with 4 samples.

Results

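ATP-binding cassette (ABC) proteins, cytochrome P450 enzymes and the enzymes that attach sugars, glutathione or sulfate were measured by RNA-seq after 3 h of dexamethasone in A549, a long-established cell line from a human lung adenocarcinoma. Members were chosen by gene symbol: 145 listed symbols matched the ABC, CYP, UGT, GST or SULT name patterns, of 34484 symbols in all, and the 68 with 40 or more reads over the 4 libraries are the members. ABCA3, ABCC2, ABCC3, CYP1A1, CYP1B1, CYP24A1, CYP27B1 and CYP51A1 were left out by name and are not among the 145. The member with the fewest reads was SULT1C2 with 45 reads, and the symbols just under the limit were CYP39A1 and GSTM1 with 26 reads each. Cells in the dex group received 100 nM dexamethasone, a synthetic glucocorticoid, and cells in the etoh group received 0.02% ethanol as vehicle, with 2 libraries in each group. The line itself, grown in F12K medium to near confluence, was the same in both groups, and the labels name no other agent or genetic change. Whether each library stands for its own culture is not stated, so the p-values rest on a spread between libraries that may be technical.

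ABC transporters use ATP to move lipids, drugs and metabolites across membranes. P450s are haem enzymes that oxidise foreign compounds, fatty acids, steroids and retinoids with electrons passed on by a reductase. Conjugating enzymes then attach glucuronic acid, glutathione or sulfate, which makes a compound easier to export, and in liver many genes of all these families are under the control of nuclear receptors.

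The dex libraries held 9828448 and 11138944 aligned reads, the etoh libraries 9764159 and 11887526. Levels are given as counts-per-million of aligned reads (CPM), with all transcripts of a symbol summed. Levels of different genes are compared per unit length, as CPM divided by transcript length in kilobases and summed over transcripts (RPKM), and group values are means ± SD over n = 2 libraries. Differences are log2 fold changes of dex against etoh with a standard error (SE), from edgeR's quasi-likelihood test, and a gene was called at an adjusted p (Benjamini-Hochberg over 14576 genes) under 0.05. The 8 markers of the line summed to between 24440 and 26716 CPM, of which ALDH1A1 alone gave between 15092 and 17707 CPM. EPCAM was the lowest of them, between 8.34 and 11.3 CPM. Among them KRT8 measured 3805 and 3167 CPM in dex and 1660 and 1795 CPM in etoh. KRT18 measured 3482 and 3061 CPM in dex and 1854 and 2300 CPM in etoh. KRT7 measured 1174 and 1073 CPM in dex and 674 and 762 CPM in etoh. AKR1C1, AKR1B10 and ALDH1A1 were lower in both dex libraries. The part of these differences in the results was not tested. Alveolar type II markers were near 0, with 6 markers summing to between 0.203 and 0.718 CPM and no marker above 4 reads in any library, so the defining surfactant genes of that cell type were nearly absent. Hepatocyte markers other than CPS1 had at most 3 reads in any library. Fibroblast markers summed to between 14.5 and 23.9 CPM, mostly COL1A1, at 16.7 and 21.3 CPM in dex and 10.4 and 15.4 CPM in etoh, and their part in the results was not tested. Leukocyte markers summed to between 1.74 and 3.36 CPM and the 3 erythroid markers had 0 reads.

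Of the 68 members, 7 rose and 2 fell after dexamethasone. The called share of members was 13.2%, against 11.4% of all genes tested, so the group as a whole was called about as often as other genes. By direction, 6.95% of all genes were called higher and 4.49% lower. The genes that rose were the lipid transporters ABCA1, ABCA7 and ABCA2, the exporters and channel subunits ABCC4 and ABCC8, and the fatty acid hydroxylases CYP4F3 and CYP4F12. ABCG2, a drug exporter, and CYP26A1, which clears retinoic acid, fell. None of the 29 conjugating enzymes was called. DESeq2 called 5 members higher and 0 lower, against 4.5% and 2.66% of all genes (7.16% in either direction), and limma-voom called 7 and 2, against 6.76% and 4.38% (11.1%). The median log2 fold change of the members was -0.01, beside -0.00 for all genes tested, and 41 members lay within 0.3 of no change. Only 5 members changed by at least 2-fold, and all of these were called. Library values of dex and etoh did not overlap for 32 members (47.1%), against 53.4% of all genes. In bulk RNA, a change in the number of cells that express a gene and a change in RNA per cell cannot be told apart.

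**Figure D1:**
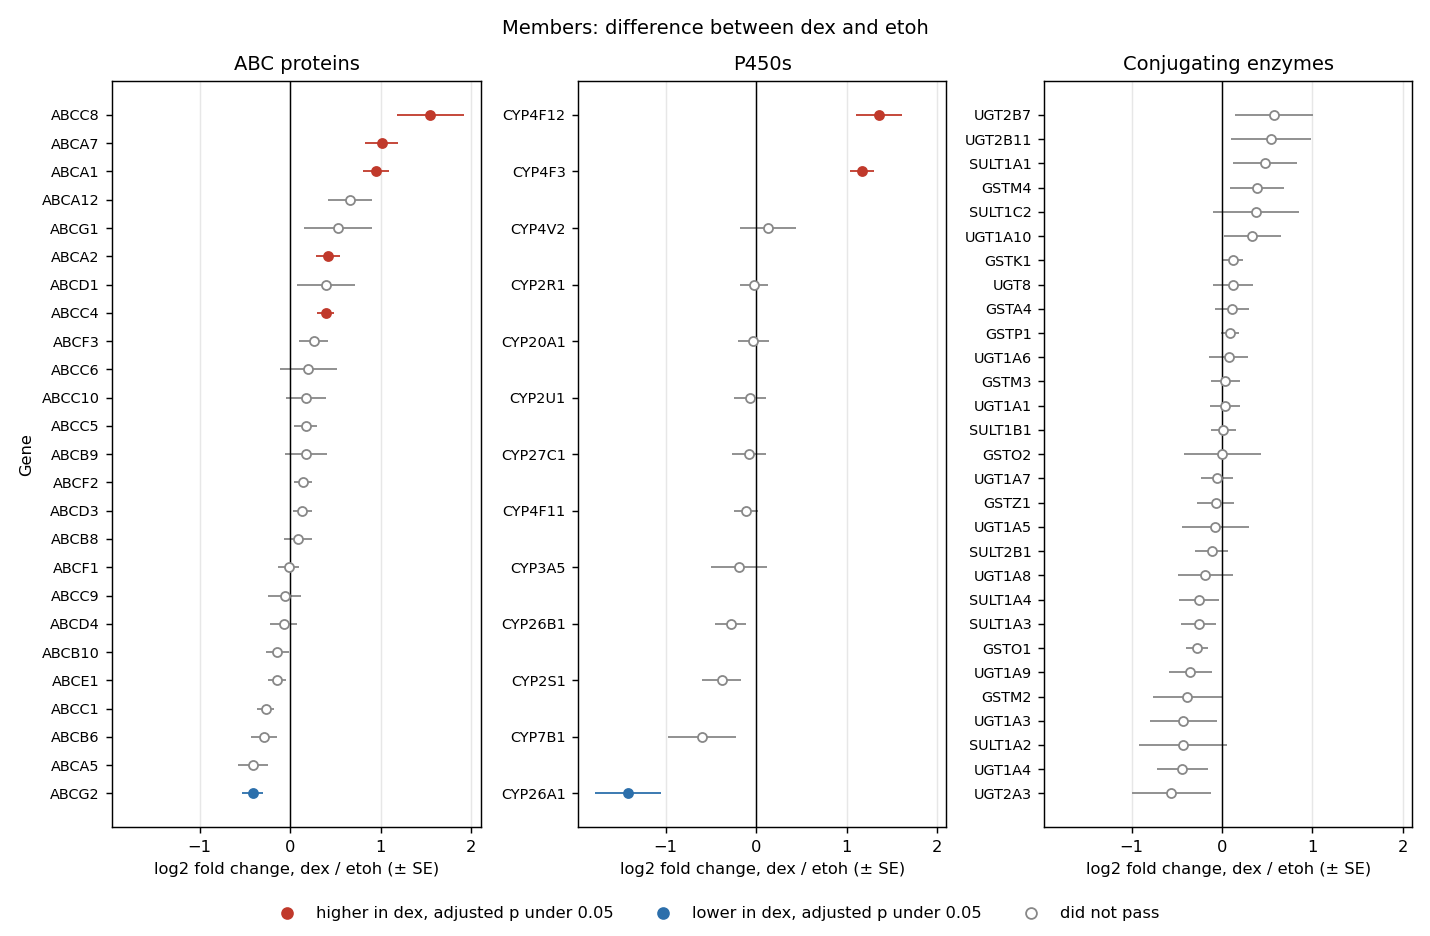
Log2 fold change of dex against etoh with its SE for each member shown, in 3 panels by protein class; filled points passed an adjusted p of 0.05. The 7 red points on the right and 2 blue points on the left are all ABC proteins or P450s, and all 29 conjugating enzymes are open points.

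Among the 5 ABCA members, full-size transporters most of which move lipids, 3 rose (6.95% of all genes were called higher). All 5 had library values that did not overlap between groups (53.4% of all genes). The differences from these shares were not tested. ABCA1, which loads cellular cholesterol and phospholipid onto apolipoproteins, measured 31.4 and 28.997 CPM in dex and 15.1 and 16.5 CPM in etoh. Both dex libraries were close to double the etoh libraries, with means of 30.2 ± 1.73 and 15.8 ± 1.01 CPM, and the log2 fold change was 0.95 (SE 0.14, adjusted p = 3.9e-05 by edgeR). Nearly all reads fell on a single full-length transcript of 10494 bases, ABCA1-002, which held 97.3% of the gene's reads in dex and 97.1% in etoh. ABCA7, a relative of ABCA1 that also exports phospholipid, measured 15.3 and 14.8 CPM in dex and 6.96 and 8.08 CPM in etoh. Its log2 fold change was 1.01 (SE 0.18, adjusted p = 3.6e-04 by edgeR), and 3 long transcripts shared most of its reads in both groups. ABCA2, a lipid transporter of lysosomes and late endosomes, was at 35.5 and 32.2 CPM in dex and 24.4 and 26.8 CPM in etoh, a log2 fold change of 0.42 (SE 0.13, adjusted p = 0.037 by edgeR). Of the 9 calls, that of ABCA2 failed under the most alternatives. It was lost without dex replicate 1 (0.35), without etoh replicate 1 (0.37) or etoh replicate 2 (0.48), with DESeq2 (0.42), with the replicate number as a block (0.42), and with the largest transcript alone (0.72). The remaining ABCA members did not pass: ABCA12, which supplies lipids to the skin barrier, was at 0.66 (SE 0.24), and ABCA5 was at -0.41 (SE 0.17), with 10.9 and 11.9 CPM in dex and 16.0 and 14.9 CPM in etoh.

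**Figure D2:**
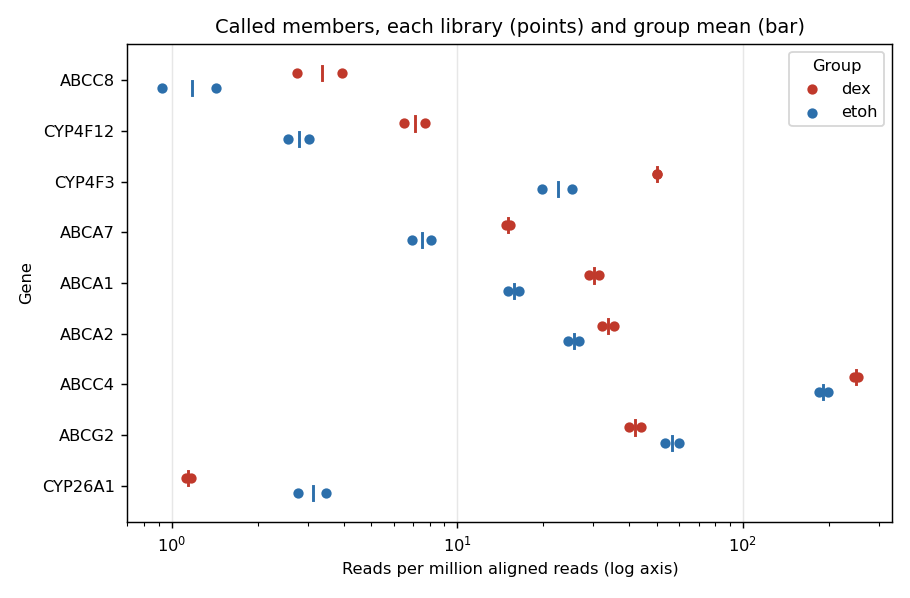
CPM (log axis) of the 9 called members in each library, with dex in red, etoh in blue and a bar at each group mean. The groups do not overlap for any of the 9 genes, and levels range from 0.925 CPM for ABCC8 in etoh to 253 CPM for ABCC4 in dex.

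Of the 7 ABCC members, which include the multidrug resistance proteins, 2 rose (6.95% of all genes were called higher), and the difference from this share was not tested. ABCC4, an exporter of cyclic nucleotides, prostaglandins and nucleotide drugs, was among the most abundant members and measured 245 and 253 CPM in dex and 198 and 185 CPM in etoh. Its log2 fold change was 0.39 (SE 0.10, adjusted p = 0.0080 by edgeR), and without etoh replicate 2 it was 0.33 and did not pass. The 2 longest ABCC4 transcripts carried 41.5% and 39.4% of its reads in dex and 39.99% and 39.7% in etoh, so the split between transcripts was alike in both groups. ABCC1, the multidrug resistance protein that exports glutathione conjugates, lay on the other side of 0 with 242 and 231 CPM in dex and 286 and 293 CPM in etoh. Its log2 fold change of -0.27 (SE 0.09) did not pass (adjusted p = 0.069 by edgeR), and it passed at -0.29 with library totals or upper-quartile factors in place of TMM. ABCC1 and ABCC4 stood close in level per length, at 45.6 and 46.3 RPKM. ABCC8, the sulfonylurea receptor subunit of ATP-sensitive potassium channels, had few reads, with 27 and 44 in dex and 14 and 11 in etoh. Its log2 fold change was 1.55 (SE 0.37, adjusted p = 0.0064 by edgeR), the largest among the members called higher. It was not called without dex replicate 2 (1.27), without etoh replicate 2 (1.23) or with DESeq2 (1.54). ABCC9, the sister channel subunit, was at -0.06 (SE 0.18), and the difference between ABCC8 and ABCC9 was not tested. With the largest transcript alone ABCC8 had under 40 reads and was not tested. That transcript, ABCC8-001, held 28.2% of the gene's reads in dex and 48% in etoh, a difference that was not tested. ABCC5, ABCC6 and ABCC10 lay between 0.17 and 0.20 and did not pass. For ABCC6, 78.0% of the 50-base stretches of its main transcript occur in other genes of GENCODE 29.

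ABCG2, the breast cancer resistance protein that exports drugs and urate, fell, with 39.99 and 43.9 CPM in dex and 59.7 and 53.6 CPM in etoh. The means were 41.9 ± 2.77 and 56.6 ± 4.33 CPM and the log2 fold change was -0.41 (SE 0.12, adjusted p = 0.021 by edgeR). The call was lost with DESeq2 (-0.42) and when dex replicate 1 (-0.35) or etoh replicate 1 (-0.32) was left out. ABCG1, which exports sterols together with ABCA1, had only 21 and 23 reads in dex and 12 and 20 in etoh and did not pass, at 0.53 (SE 0.37).

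None of the 12 remaining ABC members was called by edgeR, DESeq2 or limma-voom, against 11.4%, 7.16% and 11.1% of all genes. In edgeR 0 of them had an unadjusted p under 0.05, against 23.5% of all genes. The difference from these shares was not tested. These 12 members were the ABCB transporters of mitochondria and lysosomes, the ABCD transporters of peroxisomes and lysosomes, and the ABCE and ABCF ATPases. The ATPases lack membrane domains and act on ribosomes. ABCE1, which recycles ribosomes after termination, was the most abundant ABC member at 130 RPKM. It measured 272 and 288 CPM in dex and 319 and 308 CPM in etoh (log2 fold change -0.14, SE 0.09). Of the 50-base stretches of the main ABCE1 transcript, 25.6% occur in other genes of GENCODE 29. Exons of ANAPC10 and OTUD4 overlap ABCE1 on the opposite strand. ABCF2 was at 0.14 (SE 0.10) and 53.6 RPKM, and 53.5% of the 50-base stretches of its main transcript occur in other genes of GENCODE 29. ABCD3, which carries fatty acids into peroxisomes, was at 0.13 (SE 0.10), and ABCD4, which helps move cobalamin out of lysosomes, at -0.07 (SE 0.15). ABCB6, a porphyrin transporter, was at -0.29 (SE 0.14), and 89.0% of the 50-base stretches of its main transcript occur in AC068946.2. P-glycoprotein was close to absent: ABCB1 had 1 read over the 4 libraries, which is under the floor of 3 counts (between 0.252 and 0.307 CPM per library).

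Of the 13 P450 members, 2 rose and 1 fell, against 6.95% and 4.49% of all genes (11.4% in either direction). Differences between families and from these shares were not tested. In family 4, whose enzymes hydroxylate fatty acids at the far end of the chain, 2 of 4 members rose, in families 1 to 3 none of 4 was called, and in the sterol, steroid and retinoid families 1 of 5 fell. CYP4F3, which inactivates the inflammatory lipid leukotriene B4, measured 50.3 and 50.3 CPM in dex and 19.8 and 25.3 CPM in etoh. The dex libraries agreed to within rounding and lay well above both etoh libraries, and the log2 fold change was 1.17 (SE 0.13, adjusted p = 5.8e-07 by edgeR), the smallest p among the members. CYP4F12, a neighbouring fatty acid hydroxylase, measured 6.51 and 7.72 CPM in dex and 2.56 and 3.03 CPM in etoh, a log2 fold change of 1.36 (SE 0.25, adjusted p = 5.7e-04 by edgeR). CYP4F11, which hydroxylates fatty acids and vitamin K, did not pass, with 24.8 and 26.6 CPM in dex and 29.2 and 27.2 CPM in etoh (-0.11, SE 0.13). The difference of CYP4F11 from CYP4F3 was not tested.

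These genes lie in a cluster on chromosome 19, with positions from GENCODE 29 on GRCh38. CYP4F3 runs from 15640897 to 15662825 and CYP4F12 from 15672757 to 15697174, both on the plus strand. CYP4F2, from 15878023 to 15898120, and CYP4F11, from 15912367 to 15934867, lie on the minus strand. CYP4F8, CYP4F2 and CYP4F22 had 25, 21 and 3 reads over the 4 libraries and were not members. Sequence shared with relatives touched CYP4F3 in part: 10.1% of the 50-base stretches of its main transcript also occur in other genes of GENCODE 29, and 8.1% of its stretches occur in CYP4F2. The share found in other genes was 2.9% for CYP4F12 and 1.1% for CYP4F11. Its main transcript, CYP4F3-001, held 72.3% of the reads in dex and 69.6% in etoh.

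CYP26A1, the main retinoic acid hydroxylase and itself a classic retinoic acid target, had 11 and 13 reads in dex and 34 and 33 in etoh. That is 1.14 ± 0.0339 against 3.13 ± 0.499 CPM, and the log2 fold change was -1.41 (SE 0.37, adjusted p = 0.011 by edgeR). It did not pass without etoh replicate 1 (-1.24) or with DESeq2 (-1.43), and with the largest transcript alone it had under 40 reads and was not tested. The transcript split of CYP26A1 was not alike in the groups, on few reads. CYP26A1-201 held 54.2% of its reads in dex and 28.4% in etoh, and CYP26A1-001 held 16.7% and 38.8%. This difference in split was not tested. CYP26B1, the other retinoic acid hydroxylase that was a member, was more abundant. It measured 18.6 and 15.1 CPM in dex and 16.8 and 24.4 CPM in etoh, and its groups overlapped (-0.28, SE 0.17). CYP7B1, an oxysterol hydroxylase, was at -0.60 (SE 0.37), CYP27C1 at -0.08 (SE 0.19) and the orphan CYP20A1 at -0.03 (SE 0.17). Among the P450s of families 1 to 3, CYP2R1, which begins the activation of vitamin D, was at -0.02 (SE 0.15), CYP2S1 at -0.38 (SE 0.22), CYP2U1 at -0.07 (SE 0.17) and CYP3A5 at -0.19 (SE 0.31). Several drug-metabolising P450s of liver were barely detected: CYP3A4 had 7 reads in all, CYP2D6 had 10 and CYP2E1 had 7.

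Short stretches just before a RefSeq start of 3 genes are shown, because each holds a motif of a receptor or factor known to act on such genes. The sequences come from the RefSeq promoter windows of GRCh38.p14, which run from 250 bases before to 50 bases after a start and covered 58 of the 68 members. All 3 stretches lie inside the gene limits of GENCODE 29, which begin further upstream. Capitals mark the motif, and a match is a description of letters and not evidence of binding.
CYP26A1: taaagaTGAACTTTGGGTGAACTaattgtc
CYP4F3: gtttactcttacTGTTCTatctccagcact
GSTP1: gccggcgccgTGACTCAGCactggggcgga
The CYP26A1 stretch, on the plus strand at chr10:93073797-93073826, holds the retinoid receptor repeat, AGTTCA repeated after a gap of 5 bases, on the opposite strand, 90 bases before the downstream of its 2 starts. Only 4 of 35116 promoter windows (0.0114%) hold this repeat on either strand. The CYP4F3 stretch, on the plus strand at chr19:15641294-15641323, holds a single arm of the glucocorticoid receptor motif, AGAACA, read on the opposite strand. That arm occurs in 9 of 78 member windows (11.5%) and in 14.8% of all windows, so it was no more frequent among members. The whole palindrome, AGAACA and TGTTCT with 3 bases between them, was found in 0 member windows and in 1 of all windows. The GSTP1 stretch, on the plus strand at chr11:67583736-67583765, holds the antioxidant response core TGACNNNGC, bound by NRF2 with small MAF proteins. That core occurs in 18 of 78 member windows (23.1%) and in 13.3% of all windows on either strand. Other motifs were searched too. The E-box CACGTG occurs in 13 of 78 member windows (16.7%) and in 7.26% of all windows. AGGTCA repeated after a gap of 4 bases occurs in 0 member windows. Differences between member windows and all windows were not tested.

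Conjugating enzymes showed no called change. Of 13 UDP-glycosyltransferases, 9 glutathione S-transferases and 7 sulfotransferases, edgeR called 0, DESeq2 0 and limma-voom 0. The shares of all genes called were 11.4%, 7.16% and 11.1%. In edgeR 1 gene, GSTO1, had an unadjusted p under 0.05 (against 23.5% of all genes tested). GSTO1 alone passed when the replicate numbers were crossed as a block, an alternative added after seeing the data. GSTP1, a pi-class cytosolic glutathione S-transferase, was the most abundant of the members per length, at 130 RPKM. The microsomal enzyme MGST1, which is outside the name rule, stood at 813 RPKM. GSTP1 measured 113 and 113 CPM in dex and 100 and 115 CPM in etoh, so the dex libraries lay inside the etoh range, and the log2 fold change was 0.09 (SE 0.10). GSTO1, an omega-class enzyme, measured 38.2 and 42.3 CPM in dex and 53.5 and 45.7 CPM in etoh (-0.28, SE 0.12, adjusted p = 0.15 by edgeR). GSTK1 was at 0.12 (SE 0.11) and 50.4 RPKM. The alpha-class genes GSTA1 and GSTA2 had 1 and 4 reads in all, and GSTT1 had 0.

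UGT1A genes share their last exons, so reads cannot be divided among them with certainty: between 66.4% and 100% of the 50-base stretches of their main transcripts occur in another gene, for the members whose transcript was found. Summed over the 9 UGT1A members, the locus had 49.0 and 49.3 CPM in dex and 51.9 and 52.8 CPM in etoh, a log2 fold change of -0.07 (SE 0.11, adjusted p = 0.75 by edgeR). Taken singly, UGT1A1, which conjugates bilirubin, was at 0.03 (SE 0.16) and UGT1A6, which acts on small phenols, at 0.08 (SE 0.22). UGT8, which attaches galactose to ceramide, was at 0.12 (SE 0.22). The UGT2 genes were rare, with 51 to 70 reads each for UGT2A3, UGT2B11 and UGT2B7.

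The sulfotransferases SULT1A3 and SULT1A4, which act on catecholamines, are near-identical copies, and every 50-base stretch of the main SULT1A4 transcript occurs in another gene. Their sum was 16.9 and 15.8 CPM in dex and 16.5 and 22.8 CPM in etoh (log2 fold change -0.26, SE 0.16). SULT2B1, which sulfates cholesterol, was at -0.11 (SE 0.18), and SULT1B1, which acts on thyroid hormones, at 0.01 (SE 0.14).

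**Figure D3:**
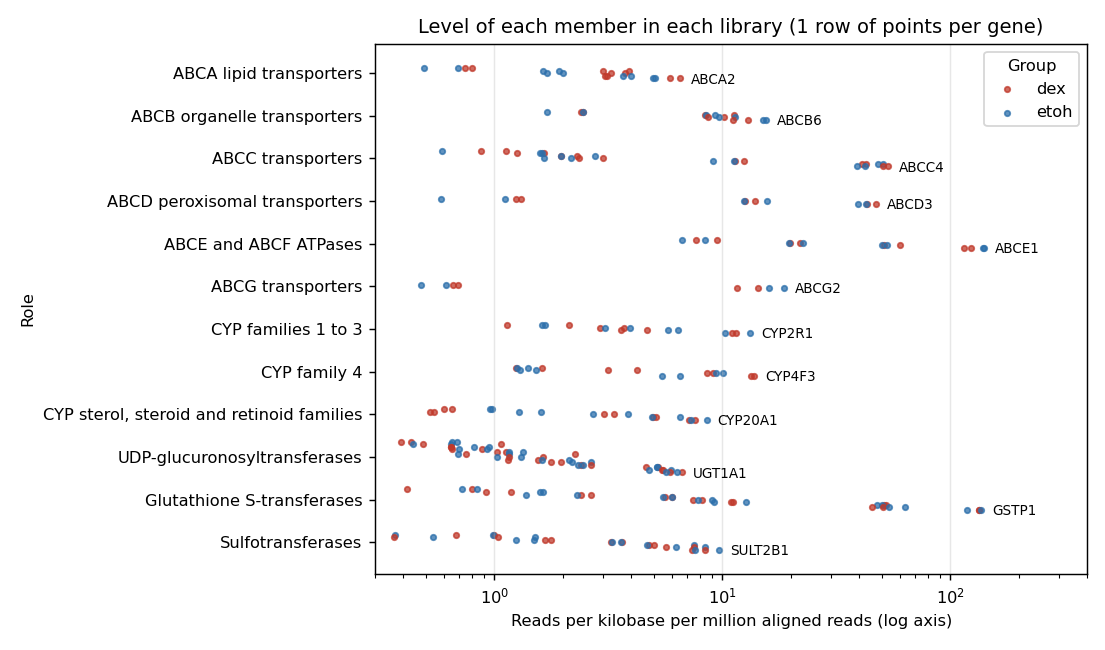
RPKM (log axis) of the members shown in each library, by role, with 1 row of points per gene and the most abundant gene shown for each role named. GSTP1 and ABCE1 lie highest, at a mean of 130, and the UDP-glycosyltransferases all lie under 10.

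Per unit length, GSTP1 (130), ABCE1 (130), ABCF2 (53.6), GSTO1 (53.3) and GSTK1 (50.4 RPKM) led the order of levels. GSTP1 and ABCE1 had ranges that overlapped across libraries, and so did ABCF2, GSTO1 and GSTK1. The called genes were spread over this order, from ABCC4 at rank 6 to ABCC8 at rank 63 of 68.

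Genes that regulate, supply or accompany these enzymes were read from 4 lists. Of 19 tested regulators, 1 rose and 3 fell, against 6.95% and 4.49% of all genes tested. Differences of the 4 lists from these shares were not tested. AHR, the dioxin receptor that drives CYP1 genes, went from 53.0 ± 1.99 to 27.2 ± 1.39 CPM (-0.94, SE 0.12). NFE2L2, which encodes NRF2, went from 166 ± 4.67 to 88.5 ± 0.740 CPM (-0.88, SE 0.10), and its partner MAFG fell by 0.89 on the log2 scale (SE 0.12). The fatty acid receptor PPARA rose by 0.63 (SE 0.20), a call lost when any 1 library was left out, with DESeq2 and with the largest transcript. The sterol receptors NR1H2 and NR1H3, which activate ABCA1 and ABCG1, were at 0.20 (SE 0.13) and 0.01 (SE 0.26) and did not pass. NR1I2, the xenobiotic receptor PXR, had 1 and 0 reads in dex and 0 and 2 in etoh and was not tested.

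Of 20 genes that pass electrons to P450s or make and break haem, 2 rose and 2 fell (6.95% and 4.49% of all genes). POR, the reductase that feeds the P450s of the endoplasmic reticulum, measured 79.9 and 65.4 CPM in dex and 44.2 and 51.4 CPM in etoh (0.62, SE 0.12, adjusted p = 0.0010 by edgeR). CYB5R3 rose by 0.42 (SE 0.12), and it did not pass with DESeq2 (0.42), with the largest transcript (0.37), or when dex replicate 2 (0.41), etoh replicate 1 (0.44) or etoh replicate 2 (0.40) was left out. HMOX1, which breaks down haem, went from 74.1 ± 7.34 to 42.7 ± 0.876 CPM (-0.78, SE 0.12), and the haem-binding PGRMC2 was at -0.41 (SE 0.11), a call lost without dex replicate 1 (-0.36) or etoh replicate 1 (-0.36). Leaving out etoh replicate 1 left 1 gene of this list higher and 1 lower, and leaving out dex replicate 1 left 1 lower.

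Of 20 genes that supply the conjugating reactions, 1 rose and 4 fell (6.95% and 4.49% of all genes). SLC7A11, the cystine importer that feeds glutathione synthesis, fell to 360 ± 27.0 CPM in dex, against 664 ± 19.4 CPM in etoh (-0.86 ± 0.10 SE, adjusted p = 6.7e-07 with edgeR). Both subunits of glutamate-cysteine ligase were lower, GCLM by -0.76 (SE 0.10) and GCLC by -0.39 (SE 0.09), and GCLC did not pass without dex replicate 1 (-0.34). UGDH, which makes UDP-glucuronic acid, was at 786 ± 14.7 CPM in dex and 989 ± 8.72 CPM in etoh (-0.31, SE 0.09, adjusted p = 0.032 by edgeR). Its call was lost with the replicate block (-0.31) and when any 1 library was left out, at values from -0.33 to -0.29. PGD, of the pentose phosphate pathway, rose by 0.45 (SE 0.11), and did not pass without dex replicate 1 (0.28) or etoh replicate 1 (0.38). With 1 library left out the number higher was 0 (dex replicate 1 or etoh replicate 1) or 3 (dex replicate 2 or etoh replicate 2), and without dex replicate 1 the number lower was 2.

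Of 33 tested other enzymes of oxidation, reduction and conjugation, 5 rose and 0 fell (6.95% and 4.49% of all genes). NNMT, which methylates nicotinamide, rose from 87.4 ± 9.50 to 155 ± 7.14 CPM (0.84, SE 0.11). The amine oxidase MAOA rose by 1.19 (SE 0.29), the aldehyde oxidase AOX1 by 0.74 (SE 0.20) and the aldehyde dehydrogenase ALDH3A1 by 0.37 (SE 0.11). NNMT kept its call under each of the 14 alternatives. MAOA did not pass with DESeq2 (1.20), with the largest transcript (0.93) or without etoh replicate 1 (1.01). AOX1 did not pass with DESeq2 (0.74), without dex replicate 1 (0.67) or without etoh replicate 2 (0.67), and ALDH3A1 did not without dex replicate 1 (0.21) or etoh replicate 1 (0.32). With the largest transcript 3 genes of this list were higher, and with DESeq2, or without dex replicate 1 or etoh replicate 1, 2 were higher. The medians of the 4 lists were 0.09, 0.10, 0.03 and -0.07, beside -0.00 for all genes.

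**Figure D4:**
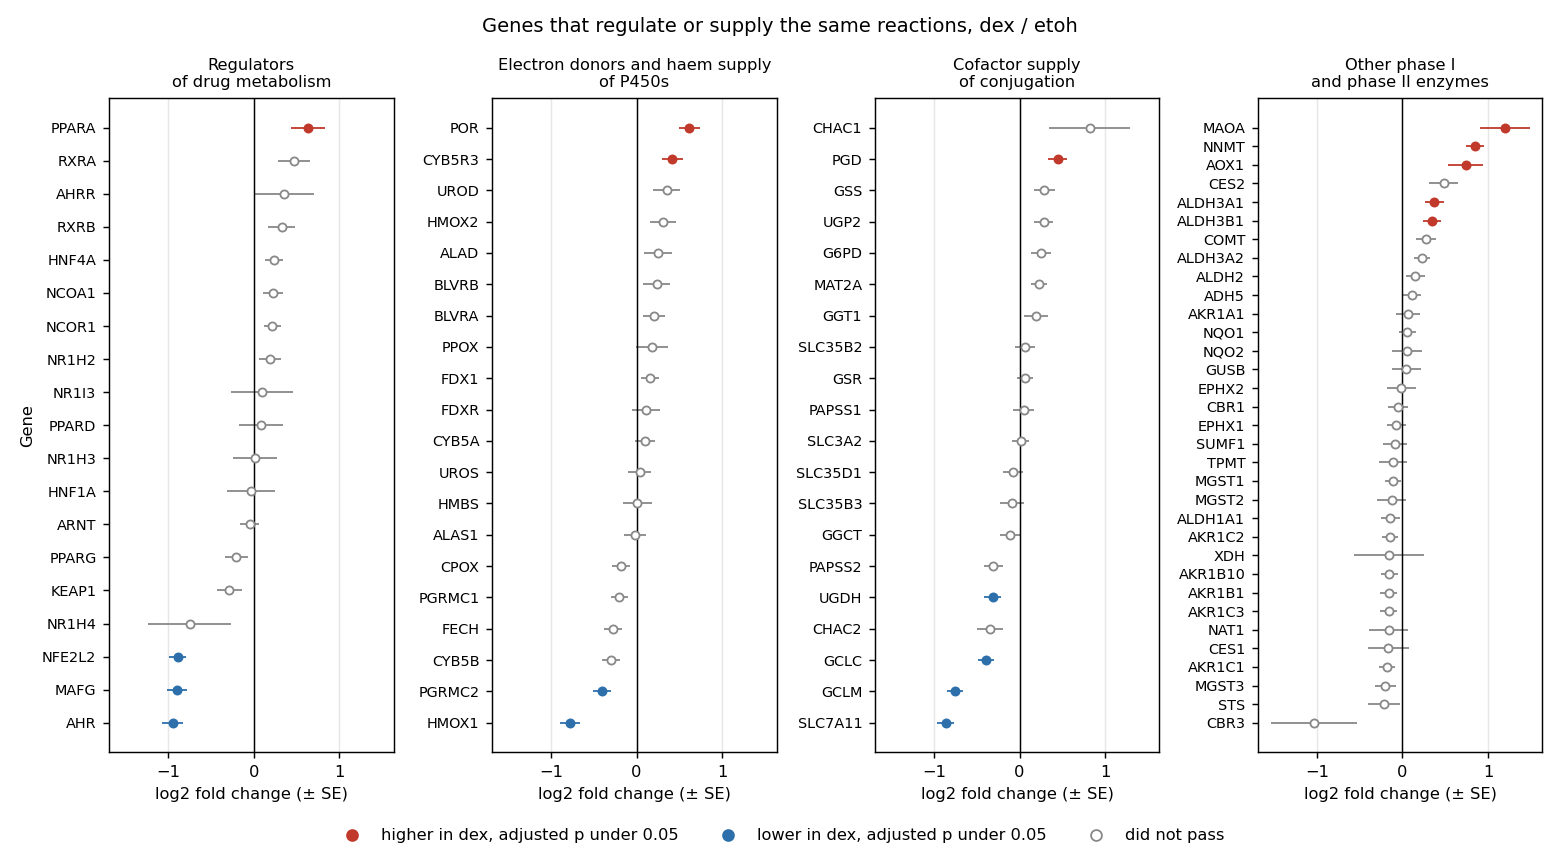
Log2 fold change of dex against etoh with its SE for the tested genes of the 4 lists, with filled points past an adjusted p of 0.05. The lower ends hold AHR, MAFG and NFE2L2 (regulators), HMOX1 (haem) and SLC7A11, GCLM and GCLC (cofactor supply). The lowest point of the 4 lists is CBR3 (other enzymes) at -1.03 (SE 0.51), an open point.

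**Figure D5:**
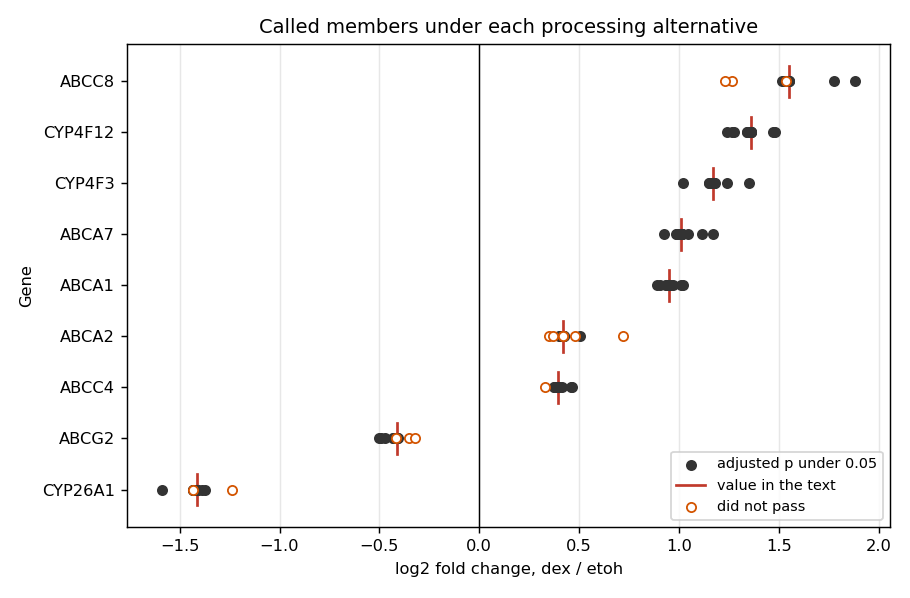
Log2 fold change of the 9 called members in the value given in the text (red bar) and under each processing alternative, with open points where the adjusted p was 0.05 or more. ABCA1, ABCA7, CYP4F3 and CYP4F12 are filled throughout, and no point of the 9 genes crosses 0.

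Across the processing alternatives, ABCA1, ABCA7, CYP4F3 and CYP4F12 were called in every fit. Their log2 fold changes ran from 0.89 to 1.02, 0.93 to 1.17, 1.02 to 1.35 and 1.24 to 1.48. The remaining 5 calls each failed in at least 1 alternative, as given beside each gene, and none changed direction.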

How the data were processed

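For each library the deposited table gives raw counts: the aligned reads and the length of each of 119207 transcripts with GENCODE-style names, and a last row of unaligned reads. This last row entered neither the library sizes nor the tests, and held 17.2% and 18.7% of reads in dex and 18.5% and 17.2% in etoh. Tools named in the submitters' processing notes are Bowtie, SAMtools, CASAVA and DESeq2. Their versions and settings, the strand and the genome build were not given in the sources used here, so reads of overlapping or antisense genes cannot be told apart.

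Counts were summed over the transcripts of each gene symbol. Genes with 40 or more reads in total were tested with edgeR 4.0.16 (R 4.3.3), TMM factors on aligned totals and the quasi-likelihood test; the SE was the absolute log2 fold change divided by the square root of F. On data simulated for this comparison over 14576 genes, 80% of 200 genes changed 2-fold were recovered and 6.43% of calls were false. The simulated spread was estimated from these same 4 libraries, so these rates cannot show how the calls would hold between cultures. The 80% pools genes of all read levels and was not given for members with few reads. Alternatives used DESeq2 1.42.0, limma 3.58.1, other scalings and filters, the largest transcript, a replicate block and each library left out. GENCODE 29 served for positions and for shared 50-base stretches. It held the main transcript of 64 members. Of these, 21 shared 10% or more of their stretches with other genes, and 12 shared 50% or more. Reads of such members cannot be assigned with certainty.

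Members, lists and motifs were chosen with earlier results of these data known, and the motifs, the summed UGT1A and SULT1A features and a crossed block after the values were seen. Values of some genes are not reported here. Named genes were every called member, the 2 most abundant members of each role, and the called genes of each list by p-value, up to 4; other genes were named after their values were seen. The floor of 3 counts covers counting error alone, because reads carry no molecular identifiers.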

Additional observations from a re-analysis of the deposited data

How the results depend on the processing

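With each library left out in turn, 4 to 6 members were called higher and 0 to 2 lower, and over all genes 675 to 1208 higher and 398 to 847 lower. Without etoh replicate 2, 4 members were higher, and without etoh replicate 1, 0 were lower. DESeq2 called 0 members lower, with 656 genes higher and 387 lower over all. At an adjusted p of 0.01, 0 members were lower, with 635 genes higher and 369 lower. The cause of these differences was not tested. With the largest transcript in place of the sum, 1 member was lower, since CYP26A1, like ABCC8, had under 40 reads there and was not tested. With the replicate number as a block, 6 members were higher and 2 lower, and 946 genes were higher and 573 lower; the block ended the call of ABCA2, at 0.42, and of no other called member. The labels do not say what a number marks, and the deviations of same-numbered libraries correlated at -0.14 across genes and at -0.33 across the more abundant 50% of them. A block with the numbers crossed, chosen after seeing the data, gave 8 members higher and 4 lower, and 1585 genes higher and 1248 lower. Small differences that changed sign, in genes that were not called, were CYP20A1 (0.14) and CYP2R1 (0.17) with the largest transcript. With each library left out, ABCD4 ranged from -0.19 to 0.076, CYP20A1 from -0.12 to 0.061, CYP26B1 from -0.50 to 0.0079, CYP2R1 from -0.17 to 0.17, SULT2B1 from -0.26 to 0.069 and UGT1A1 from -0.068 to 0.14. Of the 9 called members, 4 kept their call in all 14 alternatives. Differences under about 0.3 on the log2 scale lay under the SE of every member with fewer than 100 reads. They were not detectable with 2 libraries per group at this depth. The SE of these members ran from 0.35 (SULT1A1) to 0.49 (SULT1A2), so their limit of detection lay well above 0.3 and was not measured. A lack of a call does not show that such a member was unchanged. ABCC1, with far more reads, did not pass at -0.27 (SE 0.09) either. CYP7B1 at -0.60 (SE 0.37) and UGT2B7 at 0.58 (SE 0.43) were not called. The called members with fewer than 100 reads, ABCC8 and CYP26A1, were at 1.55 and -1.41.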
